A study of Nicotiana tabacum with 6 samples.

Results

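ATP-binding cassette (ABC) transporters of tobacco (Nicotiana tabacum) leaf were compared between MuGDH64, an aphid-resistant line bred from GDH64 by cobalt-60 gamma irradiation, and its parent GDH64. The members were the gene models whose domain description contains "ABC transporter" or "ABC-2 type". There were 273 such models among the 69500 of the table, and 126 of them reached at least 1 FPKM (fragments normalised to transcript length and to the number of mapped fragments) in at least 3 of the 6 libraries. Models with the ABC-2 type membrane domain were kept apart from the rest: 34 of 107 ABC-2 type models and 92 of 166 other ABC models passed this filter. Each line had 3 leaf RNA sequencing libraries, and both lines were grown in the same randomized field trial, with no further treatment named. MuGDH64 is 1 mutant line, so changes elsewhere in its irradiated genome cannot be told apart from those of the NtCYC mutation named in the title of the series. Per the labels, leaf punches from the middle leaves of 3 plants of a plot were mixed. The trial was sampled at several ages in more than 1 season, and no label gives the age or season of a library. All 6 libraries are therefore described by line and library number only.

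ABC transporters use ATP hydrolysis to move molecules across membranes. Each working unit pairs nucleotide-binding domains, which bind and split ATP, with membrane-spanning domains that form the path for the cargo. In plants the ABC-2 type membrane domain marks mainly the G subfamily. Its half-size members export wax and cutin precursors, and its full-size pleiotropic drug resistance (PDR) members export terpenoids and other defence compounds. In Nicotiana, PDR transporters secrete antifungal diterpenes and have been found in glandular trichomes. Transporters with the type 1 membrane domain include the B subfamily, with auxin carriers, and the C subfamily, which loads conjugated compounds into the vacuole. The gene models carry no symbols, none of the 273 identifiers occurs in the RefSeq gene table used here, and so no model could be assigned to a named transporter.

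In MuGDH64 more of the ABC-2 type transporters were called lower than of all tested genes, while the shares of the other ABC transporters called lower and higher were, as deposited, near or below those of all tested genes. Of the 34 tested ABC-2 type models 8 fell and 0 rose (limma on log2(FPKM + 1), Benjamini-Hochberg adjusted p under 0.05 over all 32340 tested genes). These 8 are 23.5% of the models, where 9.74% of all tested genes were called lower and 2.2% higher, 11.9% in either direction. At an unadjusted p under 0.05, 16 ABC-2 type models were lower (47.1%) and 0 higher, where 26.2% of all tested genes were lower and 4.99% higher. Of the 92 other ABC models 7 fell (7.61%) and 1 rose (1.09%), and the 1 higher call was lost whichever of the 6 libraries was left out. The lower position of the ABC-2 type transporters was already known from these data when the groups were chosen, so their count is a description of the family.

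The scale of the libraries bears on every one of these counts. The sum of FPKM over all models ran from 634425 to 719776 in MuGDH64 libraries and from 728572 to 756316 in GDH64 libraries, and the median log2 difference of all tested genes was -0.176 (MuGDH64 minus GDH64). Log2 differences of single members are therefore given relative to this median, while the adjusted p values belong to the differences before the subtraction. After quantile normalization, which gives all libraries 1 common distribution, 5 ABC-2 type models were lower and 0 higher, against 5.17% lower and 4.43% higher of all genes (9.6% in either direction). Among the other ABC models the same step gave 1 lower (1.09%) and 5 higher (5.43%), and 86 of the 92 were called neither way, as 84 were before it. Median-centring gave 5 lower and 0 higher among the ABC-2 type models and 2 lower and 7 higher among the others, against 4.28% lower and 6% higher of all genes (10.3% in either direction).

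Leaf identity of the libraries was checked on marker families. The 14 Rubisco small chain models summed to between 7448 and 7618 FPKM in MuGDH64 and between 6579 and 7665 FPKM in GDH64. The 76 chlorophyll a-b binding models summed to between 6615 and 7392 FPKM in MuGDH64 and between 7351 and 8055 FPKM in GDH64. Of 63 tested models 14 were lower and 2 higher, where 9.74% of all tested genes were lower and 2.2% higher. Seed 11-S storage proteins stayed between 20.6 and 23.4 FPKM in MuGDH64 and between 21.4 and 24.9 FPKM in GDH64 in sum, and 10 of the 21 models were at 0 in all libraries. The 58 models of the Ole e 1 family, named after a pollen protein, summed to between 416 and 444 FPKM in MuGDH64 and between 466 and 516 FPKM in GDH64, with 24 at 0. Of 24 tested models 7 were lower and 1 higher, against the same 9.74% and 2.2% of all tested genes. The Ole e 1 family is not confined to pollen. No model matched the root marker, the Casparian strip proteins. The chlorophyll a-b binding sums overlapped between the lines. The Ole e 1 sums were lower in every MuGDH64 library than in any GDH64 library. The same held for the ABC-2 type sums and for the FPKM sums over all models. The Ole e 1 sums were not taken as a share of the library, and their part in the ABC-2 type difference was not tested. In leaf tissue as a whole, fewer cells of a type and less RNA per cell cannot be told apart.

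As a group the ABC-2 type models separated the lines on the share of the library as well. Their FPKM summed to 338.7, 329.2 and 310.8 in MuGDH64 libraries, against 384.4, 420.4 and 392.3 in GDH64 libraries. This was 0.0471%, 0.0467% and 0.0490% of the library sum in MuGDH64, against 0.0512%, 0.0556% and 0.0538% in GDH64. The lines did not overlap on either scale. The median log2 difference of the 34 models was -0.383, which is -0.207 relative to that of all tested genes. Of the 34 models 32 had a negative difference and 27 lay below the median of all genes. In 20 models (58.8%) every MuGDH64 value was below every GDH64 value, as in 31.8% of all tested genes, and in no model was the order the opposite, as in 5.68% of all tested genes. Among the 20 is Nitab4.5_0008389g0030, which reached 1 FPKM in GDH64 libraries only, so that the filter itself set its order.

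**Figure D1:**
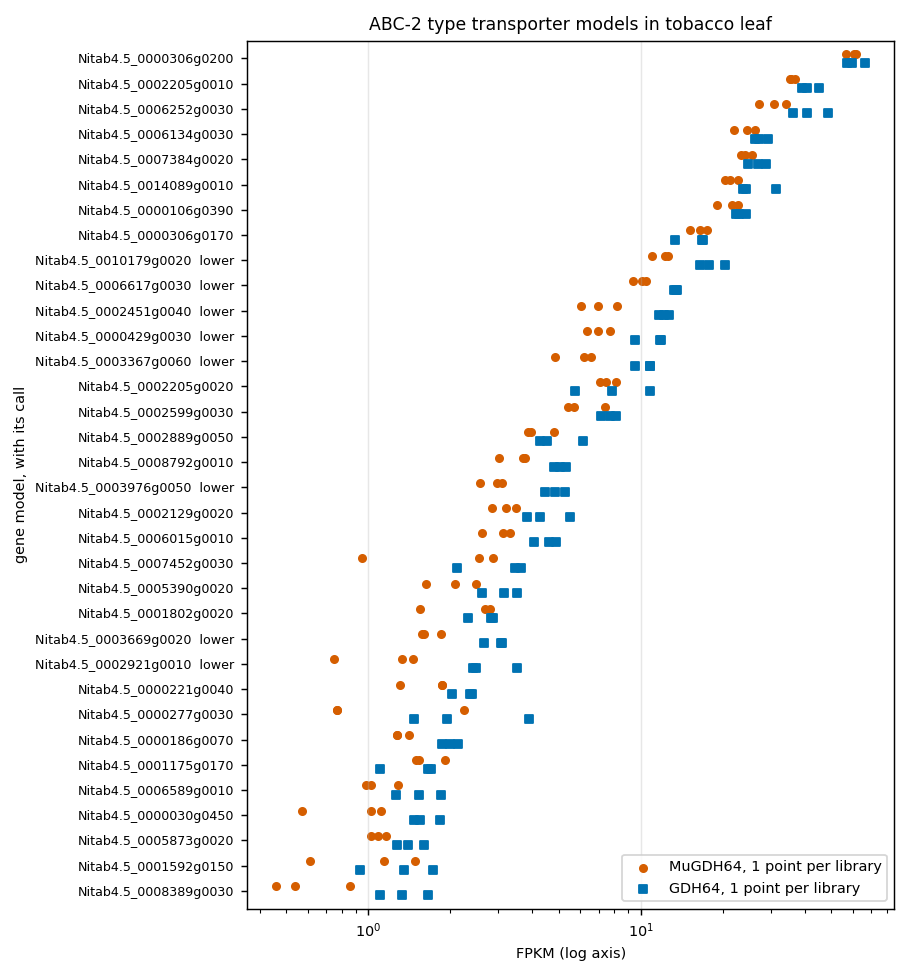
FPKM of the 34 ABC-2 type models on a log axis, with 1 point per library, MuGDH64 as circles and GDH64 as squares, ordered by mean level. The word after a name gives the call, and the 8 models marked lower have means between 1.99 and 15.1 FPKM, below the most abundant models.

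Of the 8 calls 6 were in models without the plant PDR-associated domain, the kind that includes half-size transporters and 21 of the 34 models. After quantile normalization 3 of these 21 (14.3%) and 2 of the 13 with the domain (15.4%) were lower, against 5.17% of all tested genes. Nitab4.5_0002451g0040 had 8.21, 6.05 and 6.97 FPKM in MuGDH64, against 12.74, 12.13 and 11.67 FPKM in GDH64. Nitab4.5_0003367g0060 had 6.59, 6.18 and 4.85 FPKM in MuGDH64, against 9.50, 10.77 and 10.82 FPKM in GDH64. In both, the highest MuGDH64 library stayed below the lowest GDH64 library. The relative log2 difference was -0.54 ± 0.126 (SE) for Nitab4.5_0002451g0040 (limma adjusted p = 0.0106) and -0.56 ± 0.133 for Nitab4.5_0003367g0060 (limma adjusted p = 0.0116). Both passed with the same sign in all 16 other settings, with adjusted p up to 0.0428 and 0.0378.

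Nitab4.5_0010179g0020, the most abundant ABC-2 type model that fell, had 12.31, 12.59 and 10.97 FPKM in MuGDH64, against 16.54, 20.35 and 17.79 FPKM in GDH64. The lines did not overlap, and the relative log2 difference was -0.39 ± 0.115 (limma adjusted p = 0.0170). It missed the threshold without GDH64 library 2 (0.0510) and without MuGDH64 library 3 (0.0537).

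A further 3 models of this kind were called, and none of these calls survived every change of scale. Nitab4.5_0000429g0030 averaged 7.01 ± 0.702 FPKM in MuGDH64 and 11.0 ± 1.34 FPKM in GDH64 (SD, n = 3 libraries each; limma adjusted p = 0.0227), and its adjusted p was 0.122 after quantile normalization. Without GDH64 library 2 or 3 it was 0.0694 or 0.0580, and without MuGDH64 library 1 or 2 it was 0.0657 or 0.0655. Nitab4.5_0006617g0030 averaged 9.96 ± 0.528 FPKM in MuGDH64 and 13.4 ± 0.129 FPKM in GDH64 (limma adjusted p = 0.0353), with 0.114 after quantile normalization and between 0.0646 and 0.116 whichever of the 6 libraries was left out. Nitab4.5_0003669g0020 averaged 1.68 ± 0.150 FPKM in MuGDH64 and 2.94 ± 0.234 FPKM in GDH64 (limma adjusted p = 0.0304). It gave 0.0786 after quantile normalization, 0.0975 and 0.0793 without GDH64 library 1 and 2, and 0.0785, 0.0618 and 0.0891 without MuGDH64 library 1, 2 and 3. In each of the 3 models the lines did not overlap as deposited.

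Among the models with the plant PDR-associated domain, which marks full-size exporters, 2 of 13 fell (15.4%) and 0 rose, against 9.74% lower and 2.2% higher of all tested genes. At an unadjusted p under 0.05, 5 were lower (38.5%) and 0 higher, against 26.2% and 4.99% of all tested genes. After quantile normalization the count was again 2 lower (15.4%), against 5.17% of all tested genes. Nitab4.5_0003976g0050 had 3.09, 2.96 and 2.56 FPKM in MuGDH64, against 4.47, 5.25 and 4.86 FPKM in GDH64 (relative log2 difference -0.42 ± 0.127, limma adjusted p = 0.0202). Nitab4.5_0002921g0010, the ABC-2 type model with the largest log2 fall, had 1.33, 1.46 and 0.75 FPKM in MuGDH64, against 2.48, 3.50 and 2.43 FPKM in GDH64 (relative log2 difference -0.63 ± 0.186, limma adjusted p = 0.0272). In both models the lines did not overlap. Nitab4.5_0003976g0050 gave 0.0586 without GDH64 library 2 and 0.0556 and 0.0678 without MuGDH64 library 2 and 3. Nitab4.5_0002921g0010 gave 0.0545 and 0.0802 without GDH64 library 1 and 2, and 0.0802 without MuGDH64 library 3. The 21 models without the PDR-associated domain had 6 lower (28.6%) and 0 higher, against the same 9.74% and 2.2%. At an unadjusted p under 0.05, 11 of them were lower (52.4%) and 0 higher, against 26.2% and 4.99%, and after quantile normalization 3 were lower (14.3%), against 5.17%. Summed FPKM of the PDR models was 156.9, 154.5 and 154.7 in MuGDH64, against 163.7, 182.2 and 179.0 in GDH64, and that of the models without the domain was 181.9, 174.7 and 156.2 in MuGDH64, against 220.8, 238.2 and 213.3 in GDH64. Neither sum overlapped between the lines, but the FPKM sums over all models did not overlap either. As a share of the library sum the PDR models did overlap. In MuGDH64 library 3 they held 154.7 of 634425 FPKM, a larger share than the 163.7 of 751469 FPKM in GDH64 library 1. The models without the domain stayed apart as a share of the library sum as well. The difference between both kinds of model was not tested.

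The most abundant PDR models did not pass the test. Nitab4.5_0000306g0200 led all ABC-2 type models with 61.35, 56.59 and 60.53 FPKM in MuGDH64, against 59.40, 57.05 and 66.43 FPKM in GDH64. The values of the lines overlapped, and the log2 difference of -0.03 had a 95% interval from -0.25 to 0.18 (limma adjusted p = 0.833). Its neighbour on the same scaffold, Nitab4.5_0000306g0170, had 15.21, 17.52 and 16.46 FPKM in MuGDH64, against 13.30, 16.91 and 16.73 FPKM in GDH64, and also overlapped (limma adjusted p = 0.720). Both lay above the median of all genes, by 0.14 and 0.25 on the relative log2 scale. Nitab4.5_0002205g0010 came second in level with 35.68, 35.35 and 36.82 FPKM in MuGDH64, against 39.17, 40.80 and 45.02 FPKM in GDH64 (limma adjusted p = 0.168). Its values did not overlap, and its relative log2 difference was -0.03.

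The models of highest level without the PDR-associated domain were also not called. Nitab4.5_0006252g0030, whose description adds an RNA recognition motif to the transporter domains, had 34.23, 30.77 and 27.24 FPKM in MuGDH64, against 40.58, 48.46 and 36.11 FPKM in GDH64 (limma adjusted p = 0.0699). It passed without GDH64 library 3 (0.0499) and with library weights (0.0384). Nitab4.5_0006134g0030 averaged 24.2 ± 2.22 FPKM in MuGDH64 and 27.6 ± 1.45 FPKM in GDH64, and Nitab4.5_0007384g0020 averaged 24.4 ± 1.12 FPKM in MuGDH64 and 26.8 ± 2.03 FPKM in GDH64. Those models sat next to each other in the order of levels, and their ranges over the libraries overlapped. The highest difference of any ABC-2 type model was that of Nitab4.5_0001175g0170, with 1.91, 1.54 and 1.5 FPKM in MuGDH64 and 1.70, 1.65 and 1.10 FPKM in GDH64 (log2 difference 0.10, 95% interval from -0.27 to 0.47).

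**Figure D2:**
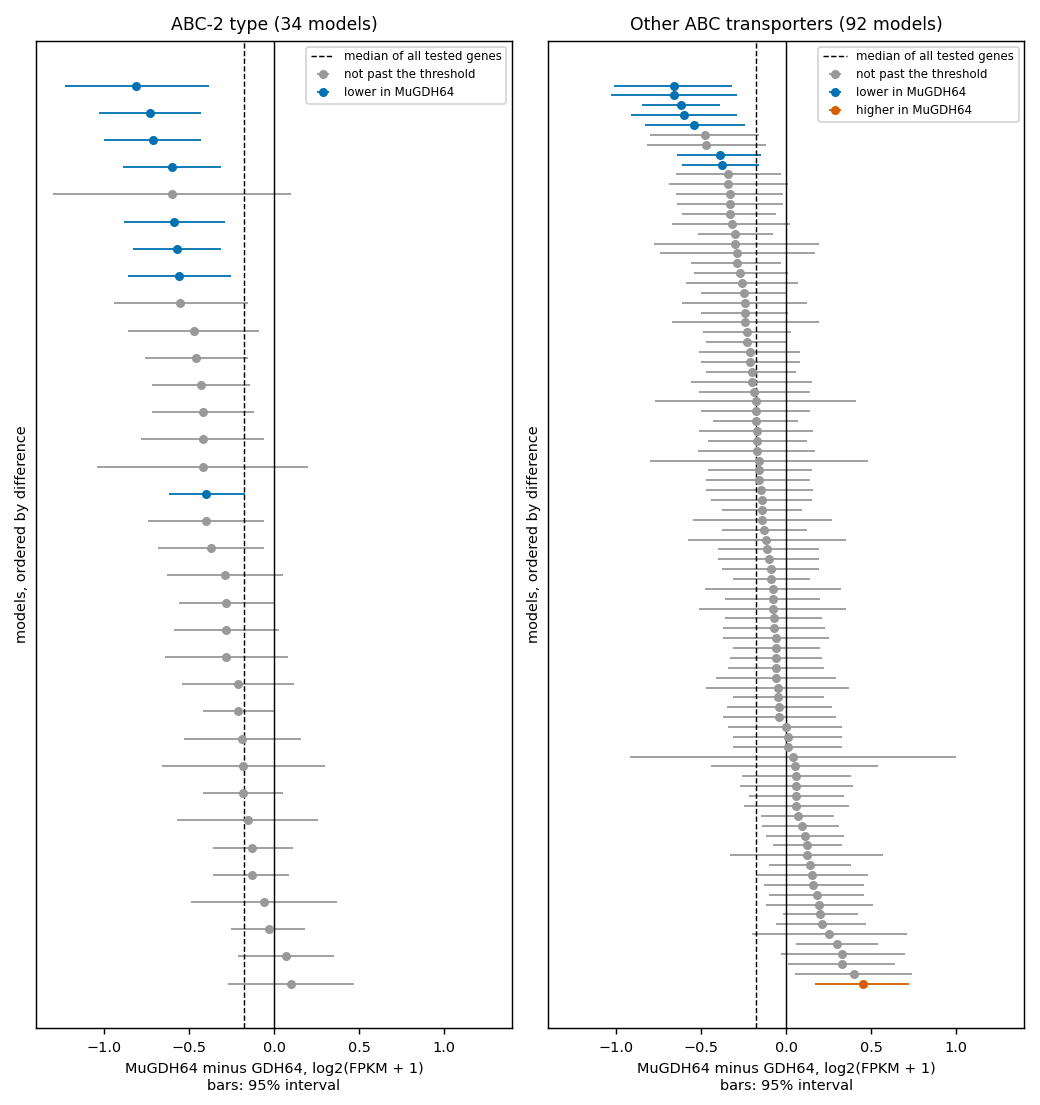
Log2 difference between MuGDH64 and GDH64 for each ABC-2 type model (left) and each other ABC model (right), on the log2(FPKM + 1) scale, with 95% intervals and the median of all tested genes at -0.176 as a dashed line. Called models are coloured: 8 lower on the left, 7 lower and 1 higher on the right.

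The levels of ABC-2 type transporters spread widely. Of the 34 models 10 had a mean of at least 10 FPKM, 5 lay between 5 and 10 FPKM and 19 lay below 5 FPKM. The 5 most abundant models held 51.5% of the summed mean level of the 34. The 8 called models had means from 1.99 to 15.1 FPKM. Among models outside the test, 23 of the 73 ABC-2 type models that failed the filter were listed at 0 in all 6 libraries, which can also be a failed estimate. The highest single values among them belonged to Nitab4.5_0003555g0060, with 0.79, 1.19 and 0.75 FPKM in MuGDH64 and 1.29, 0.75 and 0.75 FPKM in GDH64, and to Nitab4.5_0006410g0010, with 0.46, 0.33 and 0.48 FPKM in MuGDH64 and 0.46, 1.12 and 0.51 FPKM in GDH64.

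Type 1 exporters, with the membrane domain of the B and C subfamilies, made up 42 of the 92 other ABC models, and 5 of them fell (11.9%) while 0 rose, against 9.74% lower and 2.2% higher of all tested genes. At an unadjusted p under 0.05, 11 were lower (26.2%) and 1 higher (2.38%), against 26.2% and 4.99% of all tested genes. The share lower was thus near that of all genes at both thresholds, and 1 of the 5 called models, Nitab4.5_0022438g0010, entered the test only through its GDH64 values. Nitab4.5_0013836g0010 had 10.12, 10.80 and 10.31 FPKM in MuGDH64, against 17.28, 17.02 and 15.44 FPKM in GDH64. The lines lay far apart beside their spread, and this model had the smallest adjusted p of all ABC members (relative log2 difference -0.45 ± 0.101, limma adjusted p = 0.00762). It passed in all 16 other settings, with adjusted p up to 0.0382, and was the 1 type 1 exporter still lower after quantile normalization.

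The other type 1 exporters that fell had lower levels and less stable calls. Nitab4.5_0000127g0140 had 3.41, 3.89 and 2.98 FPKM in MuGDH64, against 5.51, 6.42 and 5.19 FPKM in GDH64 (limma adjusted p = 0.0253). It gave 0.0519 after quantile normalization, 0.0687 and 0.0738 without GDH64 library 1 and 2, and 0.0631 and 0.0818 without MuGDH64 library 1 and 3. Nitab4.5_0022438g0010, described by the membrane domain alone, had 0.93, 0.66 and 0.68 FPKM in MuGDH64, against 1.97, 1.84 and 1.54 FPKM in GDH64 (limma adjusted p = 0.0271). It could not be tested once a GDH64 library was left out, and it gave 0.0755 and 0.0790 without MuGDH64 library 2 and 3. Nitab4.5_0000765g0050 averaged 2.64 ± 0.301 FPKM in MuGDH64 and 4.27 ± 0.358 FPKM in GDH64 (limma adjusted p = 0.0327), and Nitab4.5_0000059g0410 averaged 6.40 ± 0.328 FPKM in MuGDH64 and 8.72 ± 0.462 FPKM in GDH64 (limma adjusted p = 0.0484). Both calls were lost whichever of the 6 libraries was left out, with adjusted p from 0.0521 to 0.103 for the one and from 0.0694 to 0.138 for the other. With the replicate block they gave 0.0562 and 0.0588.

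Models described by nucleotide-binding domains without a membrane domain were the largest class, with 46 tested models, of which 2 fell (4.35%) and 1 rose (2.17%), against 9.74% lower and 2.2% higher of all tested genes. After quantile normalization 0 were lower and 4 higher (8.70%), against 5.17% and 4.43%, and after median-centring 0 were lower and 6 higher (13.0%), against 4.28% and 6%. Such models include soluble ABC proteins and subunits that pair with a separate membrane protein. The class rests on the description alone, and it also holds the models named ABCA, SufC, ABCE or CcmA that are described below. The 1 higher call and 1 of the 2 lower calls are ABCA models. Nitab4.5_0002033g0050, the most abundant ABC member of the table, had 229.8, 245.2 and 223.3 FPKM in MuGDH64, against 301.8, 338.9 and 272.9 FPKM in GDH64. The lines did not overlap, and the relative log2 difference was -0.21 ± 0.1 (limma adjusted p = 0.0410). This call was lost after quantile normalization (0.0926), without GDH64 library 1 (0.112) or 2 (0.111) and without MuGDH64 library 1 (0.0952), 2 (0.0771) or 3 (0.0983).

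The next members by level were not called. Nitab4.5_0002186g0080 had 99.15, 102.0 and 90.82 FPKM in MuGDH64, against 119.7, 131.5 and 110.2 FPKM in GDH64 (limma adjusted p = 0.0759). Its lines did not overlap, and it passed with the replicate block (0.0475) and with library weights (0.0457). Nitab4.5_0004840g0050 averaged 73.0 ± 7.52 FPKM in MuGDH64 and 70.3 ± 9.18 FPKM in GDH64, and Nitab4.5_0006520g0010 averaged 60.4 ± 4.34 FPKM in MuGDH64 and 62.6 ± 8.26 FPKM in GDH64. Both of these overlapped between the lines, with limma adjusted p of 0.773 and 0.810. Together the 5 most abundant other ABC models, which also include a peroxisomal transporter, held 47.3% of the summed mean level of the 92.

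**Figure D3:**
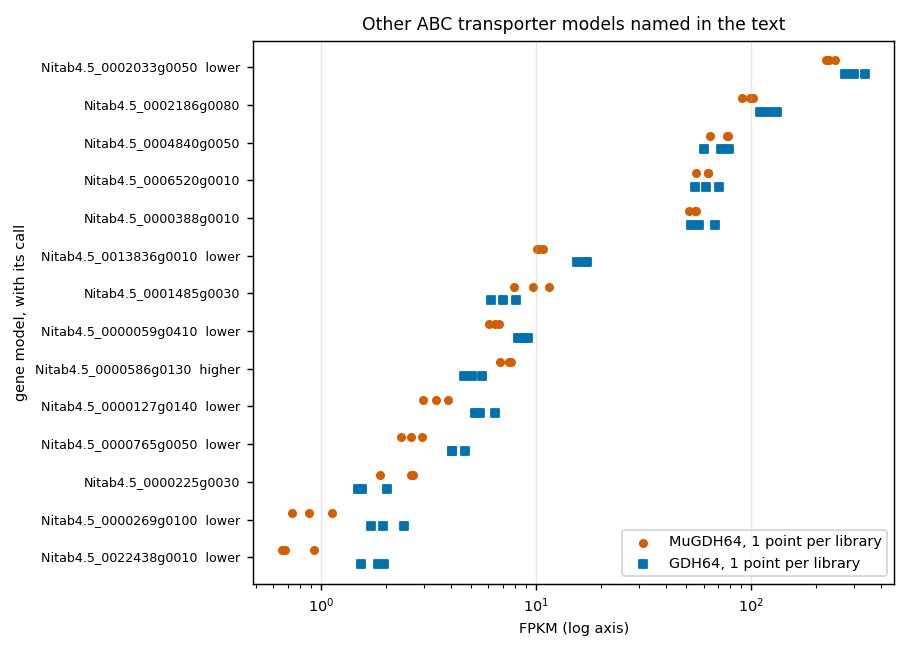
FPKM on a log axis of the other ABC models named for their call, their level or their difference, with 1 point per library, MuGDH64 as circles and GDH64 as squares. The model marked higher, Nitab4.5_0000586g0130, has all 3 MuGDH64 values above its GDH64 values.

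The A subfamily, whose members are known in animals chiefly as lipid transporters, had 9 tested models named ABCA in their description. Of these 1 was higher and 1 lower (11.1% each), against 2.2% higher and 9.74% lower of all tested genes. Nitab4.5_0000586g0130 rose, with 7.51, 7.61 and 6.76 FPKM in MuGDH64, against 5.05, 5.63 and 4.60 FPKM in GDH64. Every MuGDH64 value was above every GDH64 value, and the relative log2 difference was 0.62 ± 0.120 (limma adjusted p = 0.0448, and 0.00553 after quantile normalization). On the deposited scale the call was lost without GDH64 library 1, 2 or 3 (0.122, 0.0554 and 0.101) and without MuGDH64 library 1, 2 or 3 (0.108, 0.129 and 0.0776). Nitab4.5_0000269g0100 fell, with 1.12, 0.88 and 0.73 FPKM in MuGDH64, against 1.95, 2.44 and 1.70 FPKM in GDH64 (limma adjusted p = 0.0330, and 0.0561 after quantile normalization). It gave 0.0797 and 0.0926 without GDH64 library 1 and 2 and 0.0802 and 0.1 without MuGDH64 library 2 and 3. Another ABCA model, Nitab4.5_0004785g0020, failed the filter with 0.95, 1.33 and 0.79 FPKM in MuGDH64 and 0.37, 0.61 and 0.49 FPKM in GDH64.

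Several small classes have roles inside organelles or in translation. The 4 peroxisomal fatty acyl-CoA transporters belong to the D subfamily, which brings fatty acids and jasmonate precursors into the peroxisome. These transporters had 0 calls in either direction, against 9.74% lower and 2.2% higher of all tested genes. At an unadjusted p under 0.05 they also had 0, against 26.2% and 4.99% of all tested genes. The most abundant of them, Nitab4.5_0000388g0010, had 54.66, 55.14 and 51.31 FPKM in MuGDH64, against 57.26, 67.94 and 52.63 FPKM in GDH64 (limma adjusted p = 0.429). Its log2 difference of -0.13 had a 95% interval from -0.38 to 0.12. Both ABCE models, of the family that recycles ribosomes, and both CcmA models, of the family linked to cytochrome c maturation, also had 0 calls. At an unadjusted p under 0.05 they again had 0. Beside these shares of all tested genes, 0 calls among so few models do not set these classes apart.

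SufC is the ATPase of the plastid machinery that assembles iron-sulfur clusters. Of its 3 tested models 0 were called as deposited, and 1 was higher at an unadjusted p under 0.05, against 4.99% of all tested genes. After quantile normalization 1 was higher and after median-centring 2, against 4.43% and 6% of all tested genes. The model higher after quantile normalization, Nitab4.5_0012485g0010, chosen after its values were seen, had 12.66, 13.19 and 11.72 FPKM in MuGDH64, against 9.45, 9.93 and 10.57 FPKM in GDH64. The lines did not overlap, and the relative log2 difference was 0.48 ± 0.105 (limma adjusted p = 0.0936, and 0.0202 after quantile normalization). Nitab4.5_0000094g0030, also chosen after its values were seen, had 23.56, 22.50 and 21.71 FPKM in MuGDH64, against 20.83, 20.22 and 20.86 FPKM in GDH64 (limma adjusted p = 0.376).

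Among the uncalled models of the other ABC set, the largest positive differences were those of Nitab4.5_0001485g0030 and Nitab4.5_0000225g0030. Nitab4.5_0001485g0030 had 11.42, 9.71 and 7.86 FPKM in MuGDH64, against 6.98, 8.04 and 6.16 FPKM in GDH64 (relative log2 difference 0.57 ± 0.153, limma adjusted p = 0.119, and 0.0180 after quantile normalization). Its lowest MuGDH64 value lay below its highest GDH64 value. Nitab4.5_0000225g0030 had 2.62, 2.68 and 1.89 FPKM in MuGDH64, against 2.03, 1.49 and 1.55 FPKM in GDH64, and overlapped too (limma adjusted p = 0.192). The other models higher after quantile normalization, chosen after their values were seen, were Nitab4.5_0000946g0030 and Nitab4.5_0003612g0020. Nitab4.5_0000946g0030, with nucleotide-binding domains only, had 6.51, 7.22 and 6.33 FPKM in MuGDH64, against 6.12, 5.60 and 5.27 FPKM in GDH64 (limma adjusted p = 0.256, and 0.0442 after quantile normalization). The type 1 exporter Nitab4.5_0003612g0020 had 2.93, 2.65 and 2.54 FPKM in MuGDH64, against 2.31, 1.83 and 1.75 FPKM in GDH64 (limma adjusted p = 0.151, and 0.0442 after quantile normalization). In both, every MuGDH64 value was above every GDH64 value. Among the models that failed the filter, Nitab4.5_0000234g0230, a type 1 exporter, had 0.63, 0.50 and 0.48 FPKM in MuGDH64 and 0.63, 1.22 and 1.11 FPKM in GDH64. A total of 20 of the 74 other ABC models that failed the filter were listed at 0 in all libraries.

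The summed level of the other ABC models separated the lines narrowly on the FPKM scale, and not as a share of the library. Their FPKM summed to 1171.7, 1157.9 and 1060.6 in MuGDH64, against 1252.3, 1379.5 and 1172.4 in GDH64, so that the highest MuGDH64 sum lay just below the lowest GDH64 sum. As a share of the library sum they held 0.163%, 0.164% and 0.167% in MuGDH64, against 0.167%, 0.182% and 0.161% in GDH64. Shares overlapped, and GDH64 library 2 held the highest. The median log2 difference of the 92 models was -0.125, which is 0.051 above that of all tested genes, and its sign turned to 0.053 after quantile normalization. Of the 92 models 35 lay below the median of all genes and 57 above it. In 28 models (30.4%) every MuGDH64 value was below every GDH64 value, and in 7 (7.61%) the order was the opposite, against 31.8% and 5.68% of all tested genes. The 28 include 3 models that reached 1 FPKM in GDH64 libraries only, so that the filter itself set their order.

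**Figure D4:**
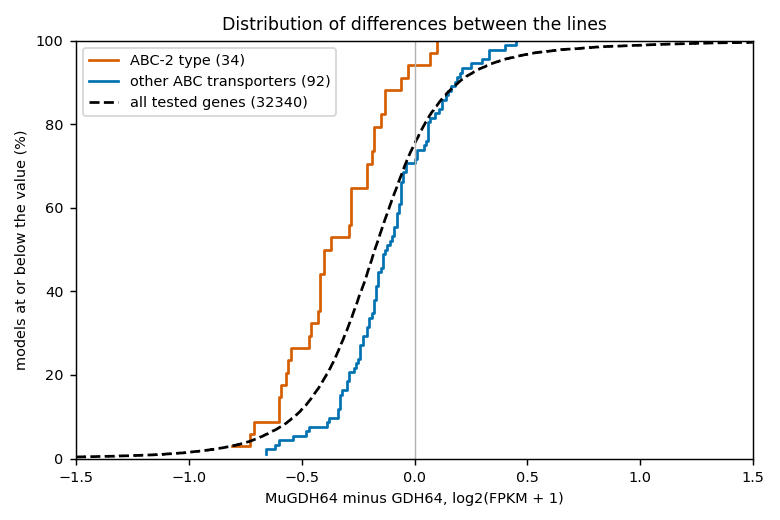
Cumulative share of models by log2 difference between MuGDH64 and GDH64, on the log2(FPKM + 1) scale, for the 34 ABC-2 type models, the 92 other ABC models and all tested genes. The ABC-2 type curve lies left of the other curves over most of its range, with medians of -0.383, -0.125 and -0.176.

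Single libraries contributed unequally to these values. Within GDH64, library 2 gave the highest value for 20 of the 34 ABC-2 type models and 52 of the 92 other ABC models. Within MuGDH64, library 3 gave the lowest value for 20 ABC-2 type models and 56 other ABC models. Over all models, GDH64 library 2 also had the highest FPKM sum (756316) and MuGDH64 library 3 the lowest (634425). The same counts were not made over all tested genes, so they are not particular to ABC models. The median coefficient of variation between libraries was 11.7% in MuGDH64 and 11.5% in GDH64 for ABC-2 type models, and 10.3% in MuGDH64 and 10.8% in GDH64 for the others. Without GDH64 library 1, 2 or 3 the count of lower ABC-2 type models was 5, 2 or 7 of 33. Without MuGDH64 library 1, 2 or 3 it was 5, 4 or 3 of 34. The count of lower models in the other ABC set was 1, 1 and 5 without GDH64 library 1, 2 and 3. It was 3, 2 and 1 without MuGDH64 library 1, 2 and 3. Lower calls among all tested genes shrank too, from 3151 with all 6 libraries to 1345, 1445 and 2491 without GDH64 library 1, 2 and 3. They were 2215, 1680 and 1363 without MuGDH64 library 1, 2 and 3.

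Some ABC models lie on the same scaffold of the assembly, read from the number in their identifier. Of the 126 tested models 20 shared a scaffold with another tested model, on 10 scaffolds. The ABCA models Nitab4.5_0000269g0090 and Nitab4.5_0000269g0100 carry neighbouring numbers. Nitab4.5_0000269g0090 was not called, with 1.01, 0.51 and 0.62 FPKM in MuGDH64 and 1.03, 1.54 and 0.73 FPKM in GDH64. The PDR models Nitab4.5_0002205g0010 and Nitab4.5_0002205g0020 also carry neighbouring numbers, and Nitab4.5_0002205g0020 had 8.11, 7.47 and 7.09 FPKM in MuGDH64 and 7.85, 10.79 and 5.75 FPKM in GDH64 (limma adjusted p = 0.853). Tobacco is an allotetraploid, and reads of near-identical copies or neighbouring duplicates may have been shared or split between models.

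The filter left models on both sides of 1 FPKM. Just inside it, Nitab4.5_0008389g0030, a PDR model, had 0.54, 0.86 and 0.46 FPKM in MuGDH64 and 1.10, 1.66 and 1.33 FPKM in GDH64, and the type 1 exporter Nitab4.5_0006318g0030 had 0.59, 0.68 and 0.77 FPKM in MuGDH64 and 1.12, 1.35 and 1.53 FPKM in GDH64. Just outside it, Nitab4.5_0001258g0030 had 0.48, 0.76 and 0.38 FPKM in MuGDH64 and 1.04, 0.74 and 1.07 FPKM in GDH64. In the test, 1 ABC-2 type model and 3 other ABC models reached 1 FPKM in GDH64 libraries only, and Nitab4.5_0022438g0010 was the called one among them.

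Families that supply or accompany these transporters were counted in the same fit, where 9.74% of all tested genes fell and 2.2% rose, with 26.2% lower and 4.99% higher at an unadjusted p under 0.05. Of 60 multidrug and toxic compound extrusion carriers, which export compounds by ion exchange, 4 fell (6.67%) and 0 rose, and 12 were lower (20.0%) and 0 higher at the unadjusted threshold, so the share lower was below that of all genes at both. Of 91 glutathione S-transferases, which conjugate compounds for vacuolar import, 13 fell (14.3%) and 9 rose (9.89%). At the unadjusted threshold 29 transferases were lower (31.9%) and 11 higher (12.1%). Of 62 lipid transfer proteins, which carry lipids through the cell wall, 12 fell (19.4%) and 5 rose (8.06%). At the unadjusted threshold 20 of them were lower (32.3%) and 9 higher (14.5%). Of 28 models for wax precursors 14 fell (50.0%) and 0 rose, and 16 were lower (57.1%) and 0 higher at the unadjusted threshold. Of 37 terpene synthases 6 fell (16.2%) and 9 rose (24.3%), and 8 were lower (21.6%) and 11 higher (29.7%) at the unadjusted threshold. The median log2 difference relative to all tested genes was 0.034 for the extrusion carriers, 0.077 for the transferases, -0.084 for the lipid transfer proteins, -0.193 for the wax models and 0.219 for the terpene synthases. After quantile normalization, where 5.17% of all tested genes were lower and 4.43% higher, 1 extrusion carrier was lower (1.67%) and 0 higher. The lower and higher counts were then 7 (7.69%) and 11 (12.1%) for the transferases, 8 (12.9%) and 6 (9.68%) for the lipid transfer proteins, 9 (32.1%) and 0 for the wax models, and 4 (10.8%) and 10 (27.0%) for the terpene synthases.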

How the data were processed

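Leaf RNA of 3 MuGDH64 and 3 GDH64 libraries was sequenced. Per the labels' protocols, TruSeq libraries were made from total RNA and read as pairs on an Illumina NovaSeq X, and the submitters' processing notes name TopHat2 and Cufflinks without versions. Genome build and annotation: not given in the sources used here. Deposited values were taken as FPKM, since the header names no unit, the values are not whole and Cufflinks reports FPKM. The authors' deposited means were checked against the library columns and not used further. No gene lengths are given, so reads could not be recovered and depth is unknown. A few very abundant transcripts in a library lower the FPKM of all its other genes.

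Models reaching 1 FPKM in 3 or more of the 6 libraries entered a two-sided limma comparison (version 3.58.1, R 4.3.3) of log2(FPKM + 1) computed from the deposited values, with a mean-variance trend and the line as the only term. Benjamini-Hochberg adjustment covered all 32340 tested genes, with a threshold of 0.05. The pseudocount understates the change of low genes. The labels do not say which libraries share a plot or season, so p values cover only the spread among these libraries, part of which may be technical. Named are, in each set, the models past the threshold (up to 15), the 5 highest in level, the 3 with the largest rise, the 3 with the largest fall and the 2 highest below the filter. Members, lists and tests were chosen with earlier results of these data known. The fit was tested on simulated data. Alternatives covered scaling, filters, pseudocount, variance model, replicate block, library weights and leaving out each library. Tables and plots were made in Python 3.11.15.

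No label says that a library number marks a shared block. Deviations of same-numbered libraries from their line means correlated at 0.015, 0.013 and 0.051 over genes, so the numbers were not taken as pairs.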

Additional observations from a re-analysis of the deposited data

How the results depend on the processing

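The median of the ABC-2 type models lay below that of all tested genes in 15 of 16 other settings, with a relative log2 value from -0.238 to -0.122, and 0.033 above it without the filter, where 84 models were tested. No setting gave a higher call among the ABC-2 type models.

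Without 1 library, the counts ran from 348 to 650 higher and from 1345 to 2491 lower for all genes, from 2 to 7 lower for the ABC-2 type models, and from 1 to 5 lower for the other ABC models, with 0 higher each time. The median log2 difference then ran from -0.403 to -0.276 for the ABC-2 type models and from -0.160 to -0.060 for the others. Among all genes, higher calls were 1266 with library weights, 1940 after median-centring, 1433 after quantile normalization and 1283 after rescaling each library to the same sum, and lower calls were 5018 with library weights, 1384 after median-centring, 1671 after quantile normalization and 1784 without the filter. The count of lower ABC-2 type models was 5 after median-centring, after quantile normalization and with a filter of 5 FPKM, which leaves 15 of the models. In the other ABC set, higher calls were 3 with library weights, 7 after median-centring, 5 after quantile normalization, 3 after rescaling and 0 without the filter. Lower calls there were 4 with a filter of 5 FPKM, 2 after median-centring, 2 without the filter, 1 after quantile normalization and 4 after rescaling. The median log2 difference of the ABC-2 type models was -0.182 after median-centring, -0.197 after quantile normalization and -0.080 without the filter, and that of the others was 0.076, 0.053 and, after rescaling, -0.014. Scaling moves the zero point, so the medians after median-centring, quantile normalization and rescaling shift by construction. The -0.080 without the filter came from 84 models in place of 34, with no scaling. The cause of the other changes was not tested. Library weights were chosen after seeing the data.

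With the replicate block, 8 ABC-2 type models were lower, and 6 of the others were lower and 1 higher, against 3279 lower and 712 higher among all genes. Not every library correlated best with its own number. Over the 29 named models that were tested, 355 comparisons with another setting kept direction and side of the threshold or were not called in either, 90 lost the call, 8 gained it and 0 reversed. Depth is unknown, so the counting error of differences at low FPKM could not be estimated.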
